A study of Saccharomyces cerevisiae with 41 samples.

Results

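The comparison set budding yeast (Saccharomyces cerevisiae) of the control strain carrying a vector for Pab1-GFP beside the same strain carrying an empty vector. Pab1-GFP is the cytoplasmic poly(A)-binding protein Pab1 fused to a fluorescent protein. The 3 Pab1-GFP libraries and the 3 empty vector libraries are 6 of the series' 41, and they were chosen by the strain and vector in their labels. Of 11587 features in the table, the 11569 outside the ribosomal DNA were taken. The labels give all strains the genetic background BY4741 and name no allele for the control. All 6 cultures grew at 25 °C and were held at 37 °C for 90 min before harvest, so both groups share that shift. The labels do not give the promoter, the selection marker or the copy number of either vector, and they do not say whether replicates came from separate cultures. Every p-value therefore measures a spread between libraries, which may be technical. The same 2 vectors were also measured in the strains csl4-ph (an allele of the exosome subunit gene CSL4) and enp1-1 (an allele of the ribosome assembly gene ENP1), with 3 libraries a group. The edgeR fit drew its spread from all 18 libraries of 3′ tags. Its p-values and standard errors thus do not rest on the 6 control libraries alone.

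Poly(A)-binding proteins coat the tail at the 3′ end of mRNA. In the cytoplasm Pab1 binds the tail, contacts the translation factor eIF4G and takes part in the shortening of tails by deadenylases, while in the nucleus Nab2 is the main protein on the tail. The PAB1 mRNA carries an A-rich stretch in its leader, a well-known feature of this gene.

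Libraries were 3′ tags: each read comes from the end of a poly(A) RNA, so a gene is counted only as far as its feature reaches that end. Values are estimated counts, scaled to CPM, which brings the counts of tested features in each library to a common total after TMM scaling. The 6 libraries held 491684 to 692389 counts outside the ribosomal DNA, after 67.12% to 78.46% of counts had fallen on the ribosomal DNA. A count of 0 was held to a floor of 3 counts, which is 4.916 to 6.443 CPM in these libraries and covers counting error only. The share in the ribosomal DNA was 74.93 ± 5.851% (SD, n = 3) with the empty vector and 72.57 ± 4.872% with Pab1-GFP. A test that takes the libraries as unpaired did not separate the groups (2-sided exact permutation test, p = 0.5). The smallest p that 3 against 3 allows is 0.1. In order of replicate number the shares were 78.15, 78.46 and 68.17% with the empty vector and 74.1, 76.5 and 67.12% with Pab1-GFP. Each Pab1-GFP share lay below the empty vector share of its number, and replicate 3 was lowest in both groups. The difference of -2.36 percentage points became 0.37 without Pab1-GFP replicate 3, where empty vector replicate 3 was kept. Of alpha-specific genes, SAG1, the alpha-agglutinin, held at least 76 counts a library, STE3, the receptor of alpha cells, 24 to 47, and the alpha-pheromone genes MF(ALPHA)1 and MF(ALPHA)2 0 to 3 and 2 to 12. Of a-specific genes, MFA1 and MFA2, the a-pheromone genes, were at 0 counts in all 6 libraries, STE2 and AGA2 at 0 or 1, BAR1 at 0 to 2.134 and STE6 at 13 to 27. Pheromone genes of both types were thus barely counted, and no mating type is read from them. The background that the labels give was not checked against these genes.

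With the Pab1-GFP vector, tags rose at the PAB1 gene and just upstream of it, and differed modestly at a few dispersed genes. At the HIS3 locus overlapping features moved in opposite directions, and the locus was not called once they were merged. Of 6249 features tested, 14 were called higher (0.224%) and 14 lower (0.224%), at a Benjamini-Hochberg adjusted p under 0.05 in edgeR's quasi-likelihood test. At an unadjusted p under 0.05 there were 339 higher (5.42%) and 312 lower (4.99%), together 651 (10.4%). The 28 called features (0.448%) comprised 12 open reading frames (ORFs), beside 3241 ORFs among the 6249 tested. Of the 28, 7 overlapped no other feature, while 69.8% of all features outside the ribosomal DNA overlapped another. Calls on 6 features held when any 1 of the 6 libraries was left out: ST4652, PAB1, ST5715, YML090W and ST6851, which were higher, and YOR203W, which was lower. With overlapping features merged 4 of those 6 kept their call, and ST6851 and YOR203W did not. Of the other 22 calls, 12 ended whichever library was left out, while their direction stayed. HIS4 is one, with log2 fold changes of -0.85 to -0.78 in those fits and adjusted p of 0.103 to 0.13. The call on 12F-198 ended without empty vector replicate 1, that on NUT0793 without empty vector replicate 1 or 3, and that on CDC48 without empty vector replicate 1 or 2 or Pab1-GFP replicate 2 or 3. The others ended in 4 or 5 of the 6 fits.

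**Figure D1:**
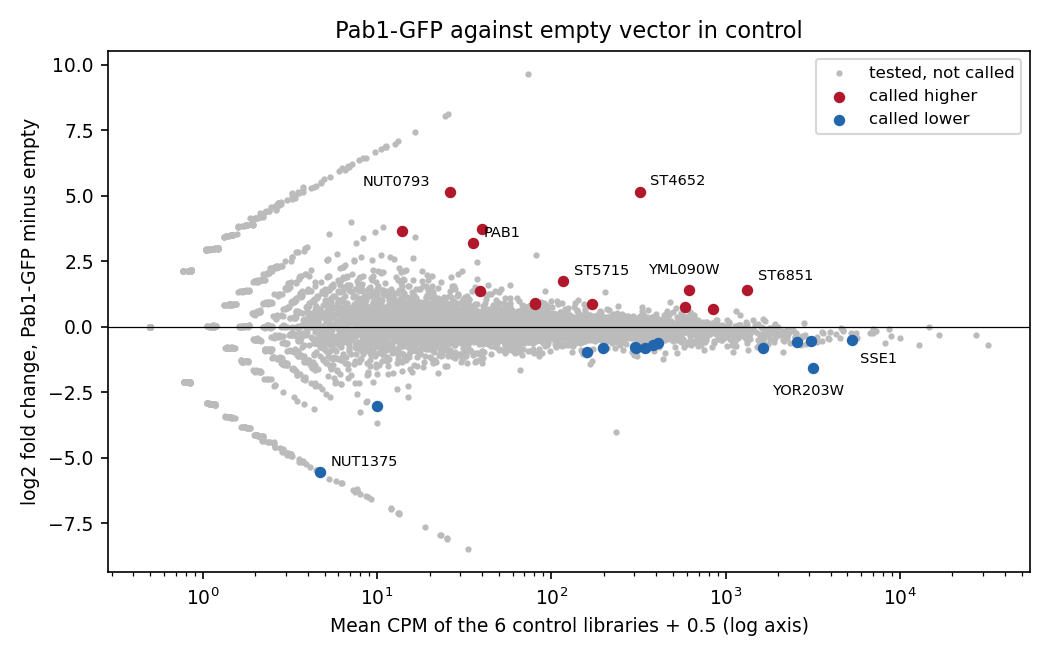
Each point is 1 of 6249 features, with the mean CPM of the 6 control libraries plus 0.5 on a log x axis and the fitted log2 fold change, Pab1-GFP minus empty vector, on the y axis. The 14 features called higher are red and the 14 called lower are blue. ST4652 lies at 5.15 and YOR203W at -1.57, far from features of like abundance, while most called ORFs lie close to the cloud.

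The sequences at the PAB1 locus are shown because tags at both of its features rose. ST4652 (V:509818-510218) lies upstream of PAB1 (V:510373-512106, plus strand), with 154 bases between them. Both windows below are 30 bases of the R64 reference, plus strand 5′ to 3′, with the longest run of A or T in capitals. The third line is the end of the PAB1 coding sequence (V:511807-512106, plus strand) with its stop codon in capitals.
ST4652 (V:510012-510041): gattatttcTTTTTTTTTTTctctttcctt
between ST4652 and PAB1 (V:510320-510349): taaaaactcAAAAAAAAAAAtccaaaaaaa
PAB1 coding end: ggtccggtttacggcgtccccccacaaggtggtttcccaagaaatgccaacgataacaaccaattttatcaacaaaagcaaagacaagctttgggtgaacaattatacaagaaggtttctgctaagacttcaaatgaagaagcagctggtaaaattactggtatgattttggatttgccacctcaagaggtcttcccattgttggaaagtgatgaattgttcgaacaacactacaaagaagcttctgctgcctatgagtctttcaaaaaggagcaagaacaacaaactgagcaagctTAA

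The run in ST4652 is 11 T long and the run before PAB1 is 11 A long. Runs of A or of T at least that long are held by 4.88% of genome windows of the length of ST4652 and by 1.87% of windows of the length of the stretch between the features. The 300 coding bases at the end of PAB1 hold no run longer than 5. The runs are described from the reference alone, and priming at them was not tested.

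ST4652, a feature with no gene name in the files, stood at 16.73, 22.51 and 13.47 CPM in the empty vector libraries and at 649.5, 650.7 and 568.6 CPM in the Pab1-GFP libraries. The groups were far apart. Its log2 fold change was 5.15 ± 0.2089 (SE, n = 3 a group; edgeR adjusted p = 2.02e-10). The feature overlaps 1 other, a CUT that held 0 or 1 counts in each of the 6 libraries.

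PAB1 (YER165W), which encodes the cytoplasmic poly(A)-binding protein, overlaps no other feature. It stood at 7.434, 4.092 and 8.416 CPM with the empty vector, which are 4, 2 and 5 counts, and at 55.56, 62.28 and 72.1 CPM with Pab1-GFP, which are 29, 29 and 44 counts. All Pab1-GFP libraries lay above all empty vector libraries. The log2 fold change was 3.20 ± 0.3851 (edgeR adjusted p = 0.000678), and it stayed between 2.98 and 3.38 in the 15 alternative fits, called in each. PAB1 was thus barely counted without the Pab1-GFP vector. In control libraries of oligo d(T)-selected RNA, made without a vector by a method that reads whole transcripts, PAB1 held 18380 to 20152 counts, and the kinds of library cannot be compared in level. Tags from the end of PAB1 mRNA that lie past the stop codon are outside this feature, and neither GFP nor any vector sequence is a feature of the table. Tags of the chromosomal gene and of the vector therefore cannot be told apart.

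Both rises recurred in the other strains, which have libraries of their own. PAB1 rose by 4.19 ± 0.3649 in csl4-ph (adjusted p = 1.13e-05) and by 3.20 ± 0.3556 in enp1-1 (adjusted p = 0.00014), and neither difference from the control was called (adjusted p = 0.745 for csl4-ph and 1 for enp1-1). ST4652 rose by 4.49 ± 0.188 in enp1-1 and by 2.30 ± 0.1629 in csl4-ph. The csl4-ph rise was smaller than that in control by 2.86 ± 0.2674 on the log2 scale (adjusted p = 6.43e-05). In csl4-ph the empty vector libraries already held 63 to 94 counts of ST4652, against 8 to 11 in control.

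**Figure D2:**
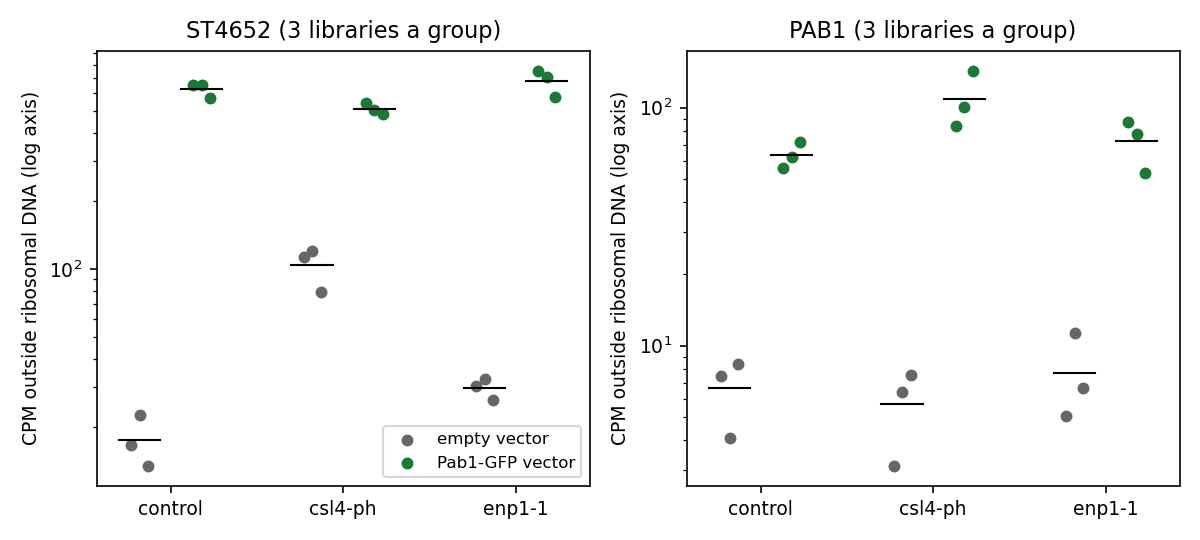
CPM of ST4652 (left) and PAB1 (right) on log y axes, by strain, with each point 1 library and each line the mean of 3. In every strain the Pab1-GFP libraries lie above the empty vector libraries, and the csl4-ph empty vector libraries are high in ST4652 relative to those of control.

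The genes that act with Pab1 were followed whether or not they moved. Of 10 Pab1 partners, 5 passed the filter on low counts and 0 were called, beside 0.448% of all features tested. Their median log2 fold change was -0.13 (-0.23 to 0.09 over the alternatives), beside 0 over all features tested. PBP4, a partner of the Pab1-binding protein Pbp1, stood at 254.6, 249.6 and 269.3 CPM with the empty vector and at 342.9, 277 and 290.0 CPM with Pab1-GFP (log2 fold change 0.23, adjusted p = 0.733), groups that did not overlap. TIF4632, one of the eIF4G genes, stood at 443.4 ± 53.25 and 390.2 ± 40.3 CPM (SD, n = 3), and PAN2, a deadenylase subunit, at 163.8 ± 4.372 and 149.5 ± 27.31 CPM. The groups of both genes overlapped. PAN3, the other subunit of that deadenylase, held 0 to 6.075 counts a library and LSM12, a partner of Pbp1, 0 or 1. TIF4631, the other eIF4G gene, held 2 to 9 counts a library and SUP35, the release factor eRF3, 2 to 4, and neither was tested. PBP1 and PBP2 were at 0 counts and MKT1 at 0 or 1. NAB2 (YGL122C), the nuclear poly(A)-binding protein gene, stood at 254.6, 237.3 and 223.9 CPM with the empty vector and at 162.8, 189 and 222.9 CPM with Pab1-GFP. The groups did not overlap by a small margin, but the difference of -0.31 ± 0.1318 was not called (adjusted p = 0.414).

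Lists of other steps in the life of a poly(A) tail held 0 calls as well, beside 0.448% of all features tested. At that share, 0 calls in lists of this size say little about their genes. All 9 tested deadenylase genes missed the threshold, with a median of 0.00. So did 10 genes of poly(A) addition and 3′ end processing (median -0.13), 17 of nuclear poly(A) RNA binding and export (median 0.01), 11 of the RNA exosome and its cofactors (median -0.17), 15 of mRNA decay (median -0.15) and 17 translation initiation factors (median -0.19). Over the alternatives the medians ranged from -0.17 to 0.09 for 3′ end processing, -0.25 to -0.04 for decay, -0.32 to -0.05 for the exosome and -0.27 to 0 for initiation. For the last list 7 of 17 members (41.18%) had every Pab1-GFP library below every empty vector library. That share was 9.94% of all features tested and 37.28% of the 625 most abundant. At an unadjusted p under 0.05 these lists held 0 to 2 members lower and 0 or 1 higher each.

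The HIS3 locus, where a gene of histidine synthesis lies beside the helicase gene DED1, changed in the opposite way at neighbouring features. YOR203W (XV:722565-722918, plus strand) spans the gap between HIS3 and DED1, with 44 bases inside HIS3 and 8 inside DED1. It stood at 4784, 4986 and 4533 CPM with the empty vector and at 1517, 1568 and 1719 CPM with Pab1-GFP, and its log2 fold change was -1.57 ± 0.1513 (adjusted p = 4.64e-05). ST6851 (XV:721741-722629), which covers HIS3, stood at 907, 863.5 and 441 CPM and at 2019, 2036 and 1703 CPM, a rise of 1.38 ± 0.2108 (adjusted p = 0.00536). NUT1432, which overlaps both, did not pass the test, at 1282 ± 112.9 and 1366 ± 216.8 CPM. NUTs are transcripts that run on in cells short of the termination factor Nrd1.

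Each of these features overlaps 5 others, and estimated counts of overlapping features divide shared reads. With overlapping features merged, an alternative added after the data were seen, the locus had a log2 fold change of -0.42 and was not called (adjusted p = 0.166). The tested features among ST6851, NUT1432, 15R-327, HIS3 and YOR203W, a part of that merged locus, together held 7105, 7088 and 6179 CPM with the empty vector and 4707, 5202 and 4760 CPM with Pab1-GFP. In control libraries without a vector, ST6851 was at 0 counts in each of 5 libraries, oligo d(T)-selected or ribo-depleted. YOR203W stood there at 1.018 to 3.034 CPM, in this case without TMM factors. All 3′ tag libraries, which all carry a vector, held far more of both. The presence of a vector and the kind of library cannot be told apart there. URA3, LEU2 and LYS2, other common markers, were at 0 counts in the 6 libraries. TRP1 held 0 to 2 counts, MET17 0 to 3, HIS3 itself 0 to 5.059 and ADE2 73.286 to 126.34. In the 5 control libraries without a vector, MET17 held 3660 to 6409 counts, TRP1 407.786 to 856.909 and URA3 111.844 to 243.139. In those libraries LEU2 held 0 to 2 and LYS2 0 to 9. For MET17, TRP1 and URA3, tags near 0 therefore do not show that a gene is silent. LEU2 and LYS2 were low in both kinds of control library.

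The longest T runs of the changed features at HIS3 are shown for comparison with PAB1, on the plus strand of R64, 5′ to 3′, with the run in capitals.
YOR203W (XV:722778-722807): ttgctttttcTTTTTTTTTctcttgaactc
ST6851 (XV:721792-721821): tgattttcaTTTTTTTTTTTccacctagcg

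A run of A or T as long as that in YOR203W is held by 9.1% of genome windows of its length, and by 10.38% for ST6851.

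**Figure D3:**
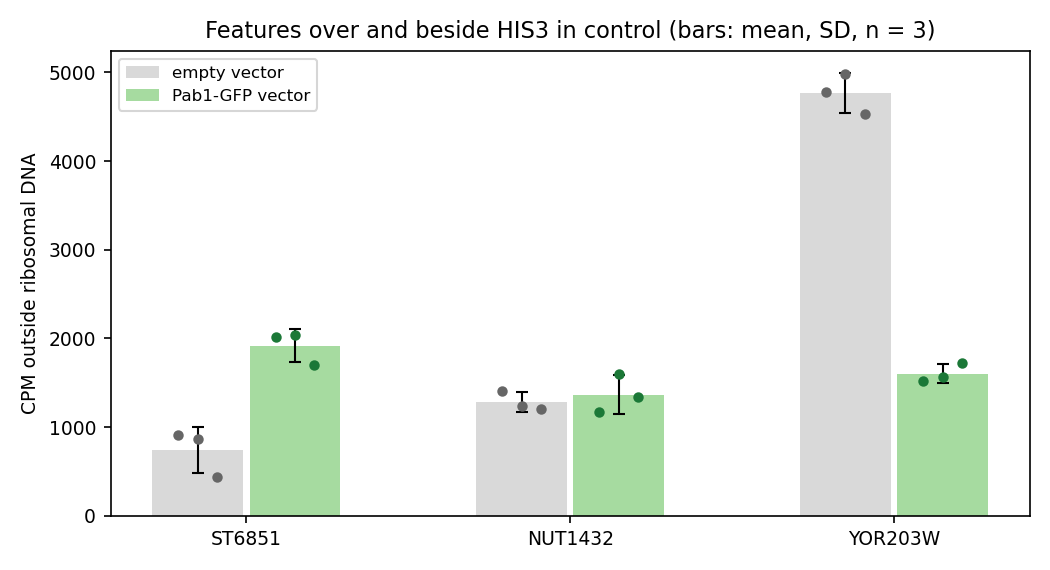
CPM of 3 overlapping features at the HIS3 locus in control. Bars are means, error bars are SD and points are the 3 libraries of each group; YOR203W is lower with Pab1-GFP, ST6851 higher, and NUT1432 overlaps between groups.

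Among features away from these loci, both with calls that held without any single library were higher. ST5715 (XI:308747-309859) ends 339 bases before NUP100, a nuclear pore gene that held 0 or 1 counts itself. It stood at 48.32, 63.43 and 50.5 CPM with the empty vector and at 132.2, 204 and 199.9 CPM with Pab1-GFP, a rise of 1.73 ± 0.2267 (adjusted p = 0.00157). It rose by 1.09 in enp1-1 (adjusted p = 0.00562), and its value of 0.68 in csl4-ph was not called (adjusted p = 0.142).

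YML090W (XIII:90744-91130, plus strand) begins 12 bases past the span of RPM2, the protein subunit gene of mitochondrial RNase P. It stood at 407, 319.2 and 303 CPM and at 971.3, 798.9 and 909.4 CPM, with no overlap between the groups. It rose by 1.38 ± 0.1949 (adjusted p = 0.00311) and by 1.56 in enp1-1 (adjusted p = 0.000259), and its csl4-ph value was 0.80 (adjusted p = 0.0827). RPM2 itself stood at 118.9, 100.3 and 104.4 CPM and at 260.6, 141.7 and 190.1 CPM (log2 fold change 0.87, adjusted p = 0.278), and was chosen after its values were seen. Merged with the overlapping NUT0563 it was called higher, at 0.95 (adjusted p = 0.0356). Their longest T runs are shown, plus strand of R64, 5′ to 3′, run in capitals.
ST5715 (XI:309686-309715): tatagaggTTTTTTTTTTTTTcacctcttt
YML090W (XIII:90842-90871): tttgtataaTTTTTTTTTTTgtgaagatga

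Runs that long are held by 6.64% and 4.67% of windows of the lengths of ST5715 and YML090W.

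Of 3241 tested ORFs 9 were called lower, beside 0.224% of all features tested. Of those 9, 8 lie outside the HIS3 locus, each with all Pab1-GFP libraries below all empty vector libraries. Groups lay apart in that direction for 13.05% of tested ORFs and for 37.28% of the 625 most abundant features. CDC48 (YDL126C), an ATPase that extracts ubiquitinated proteins, fell by 0.60 ± 0.09045 (adjusted p = 0.00536), from 3173, 3231 and 2862 CPM to 2132, 2002 and 1976 CPM. SSE1 (YPL106C), an Hsp110 chaperone, fell by 0.53 ± 0.1084 (adjusted p = 0.0475), from 6252, 6208 and 6353 CPM to 4253, 4491 and 4324 CPM. CDC48 was called lower in csl4-ph too, by 0.47 (adjusted p = 0.0277), and SSE1 by 0.57 (adjusted p = 0.0276).

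HIS4 (YCL030C), of histidine synthesis, stood at 1996, 2022 and 2203 CPM with the empty vector and 1190, 1220 and 1165 CPM with Pab1-GFP, and its log2 fold change was -0.80 ± 0.1588 (adjusted p = 0.039). ADE6 (YGR061C), of purine synthesis, fell by 0.68, from 471.7 ± 55.43 to 294.2 ± 36.14 CPM. PYC2 (YBR218C), a pyruvate carboxylase, fell by 0.78, from 379.1 ± 35.6 to 220.4 ± 25.01 CPM, and was called lower in enp1-1 by 0.77 as well.

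VMA2 (YBR127C), a subunit of the vacuolar proton pump, stood at 250.9, 251.7 and 252.5 CPM and at 143.7, 156.8 and 132.7 CPM, and its log2 fold change was -0.80 ± 0.161 (adjusted p = 0.039). VTC3 (YPL019C), of the vacuolar polyphosphate polymerase complex, fell by 0.64, from 497.7 ± 36.24 to 319.8 ± 20.63 CPM. GDE1 (YPL110C), a glycerophosphocholine phosphodiesterase, fell by 0.80, from 387.7 ± 40.14 to 221.7 ± 1.943 CPM. The calls on PYC2 and VTC3 also ended with scaling factors taken from ORFs only, at unchanged sign. With overlapping features merged PYC2 was at -0.48 and not called (adjusted p = 0.0667). SSE1, which overlaps no feature and so was not itself merged, was at -0.51 in that fit and not called (adjusted p = 0.0645).

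Among noncoding features, 7 of 1177 tested NUTs were called higher and 3 lower, beside 0.224% of all features each way. NUT0558 (XIII:13470-14693), over COX14, stood at 643.1, 585.2 and 737.3 CPM with the empty vector and 1025, 964.3 and 1111 CPM with Pab1-GFP, a rise of 0.66, and rose by 0.90 in enp1-1 (adjusted p = 0.00114). NUT0291, over the pseudouridine synthase gene PUS6, rose by 0.75 from 433.4 ± 57.01 to 727.5 ± 52.17 CPM. NUT0312, over ZUO1, a ribosome-associated chaperone gene, fell by 0.56 from 3668 ± 111.1 to 2484 ± 42.44 CPM, and by 0.55 in csl4-ph. Merged with its overlaps it was at -0.45 and not called (adjusted p = 0.0537). NUT0455 rose by 0.87 and NUT1005 by 1.38, while NUT1525 fell by 0.98, from 213 ± 9.529 to 108.1 ± 8.476 CPM, and 12F-198, which overlaps YLR179C, fell by 0.83.

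Several calls ended once overlapping features were merged. NUT1005, which overlaps 8 features, was then at 0.475 (adjusted p = 0.278). NUT0882 stood at 0, 0 and 15.15 CPM with the empty vector and 84.3, 66.58 and 72.1 CPM with Pab1-GFP, while 4R-81, which spans nearly the same bases, went from 31.344, 24.266 and 53.185 counts to 0 in each library. Together they held 70.36 ± 29.75 and 74.32 ± 9.067 CPM, and the merged locus had a log2 fold change of -0.03 (adjusted p = 0.974). NUT0793 went from 0, 4.092 and 0 CPM to 68.97, 23.62 and 57.35 CPM and NUT1517 from 0, 0 and 5.05 CPM to 5.747, 38.66 and 31.13 CPM, and neither was called once merged. NUT1375, at 14.87, 2.046 and 8.416 CPM, fell to 0 counts, at least 1.481-fold lower against 3 counts a library, and its merged locus was at -0.50 (adjusted p = 0.565). CUT_XII_657651_658083 stood at 13.01, 20.46 and 16.83 CPM and at 0, 6.443 and 0 CPM, and its merged locus at -0.13 (adjusted p = 0.898). CUTs are unstable transcripts that the exosome degrades. Of 594 tested, 0 were called higher and 1 lower, beside 0.224% of all features each way, with a median of 0.00.

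The remaining called features, MUM3 and ST4309, were higher. MUM3, needed for the spore wall, rose by 0.92 ± 0.1704, from 63.19, 55.24 and 48.82 CPM to 120.7, 105.2 and 90.12 CPM. ST4309 rose by 0.85, from 56.89 ± 8.527 to 103.3 ± 5.021 CPM, and was not called with overlapping features merged, at 0.12.

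Of 28 tested genes of amino acid biosynthesis 1, HIS4, was called lower and 0 higher, beside 0.224% of all features each way. Their median was -0.40 (-0.51 to -0.26 over the alternatives). In 13 members all Pab1-GFP libraries lay below all empty vector libraries, beside 9.94% of all features and 37.28% of the 625 most abundant. Of these members, chosen after their values were seen, ILV6, of branched-chain amino acid synthesis, stood at 603.1 ± 166.2 and 296.8 ± 18.39 CPM (log2 fold change -1.02, adjusted p = 0.0765) and LEU1, of leucine synthesis, at 462 ± 9.35 and 258.5 ± 17.38 CPM (-0.84, adjusted p = 0.0969). Merged with the overlapping 3F-45, ILV6 was called lower, at -1.01 (adjusted p = 0.0309). Of 11 purine genes 1, ADE6, was called (median -0.35, -0.52 to -0.20 over the alternatives). Of 18 heat shock chaperones 1, SSE1, was called (median -0.13, -0.245 to 0), and of 9 phosphate starvation genes 1, VTC3 (median -0.15). Of all features tested, 0.448% were called.

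All 13 tested genes of glycolysis and fermentation had negative values, with a median of -0.63 and 0 called, beside 0.448% called of all features tested. That median was -0.33 with DESeq2 and -0.30 without the filter on low counts. TDH3, the main glyceraldehyde-3-phosphate dehydrogenase gene, also chosen afterwards, stood at 48520, 31210 and 38530 CPM with the empty vector and at 24120, 27800 and 21610 CPM with Pab1-GFP (-0.69, adjusted p = 0.733). PFK1, of phosphofructokinase, stood at 375.3 ± 40.95 and 243.3 ± 23.15 CPM (-0.63, adjusted p = 0.0845). Of 97 ribosomal protein genes 0 were called, 80 had negative values and the median was -0.41 (-0.56 to -0.26 over the alternatives). In 37 (38.14%) the groups were apart with Pab1-GFP lower, a share close to the 37.28% of the 625 most abundant features. All 8 tested genes of the unfolded protein response of the endoplasmic reticulum were negative (median -0.44, -0.72 to -0.25 over the alternatives, 0 called). The 11 genes of the TCA and glyoxylate cycle had a median of -0.38 with 0 called, and it was -0.16 with DESeq2, -0.13 without the filter and -0.07 with overlapping features merged. Other lists had medians above 0, such as 0.06 over 8 mating pheromone response genes and 0.06 over 6 of pyrimidine synthesis, with 0 called in each.

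Abundance moved with the direction of these values. In the 625 most abundant features (373.8 CPM and above) the median was -0.15, with 4 called higher, 7 called lower and 233 apart with Pab1-GFP lower, against 9.94% lower and 8.67% higher of all features. These features held 69.39 ± 0.3596% of tested counts with the empty vector and 65.84 ± 0.2373% with Pab1-GFP. Scaling factors also differed, at 0.819 to 0.8875 with the empty vector and 0.9544 to 0.9778 with Pab1-GFP. The part of this shift in the list medians and in the ORFs called lower was not tested.

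**Figure D4:**
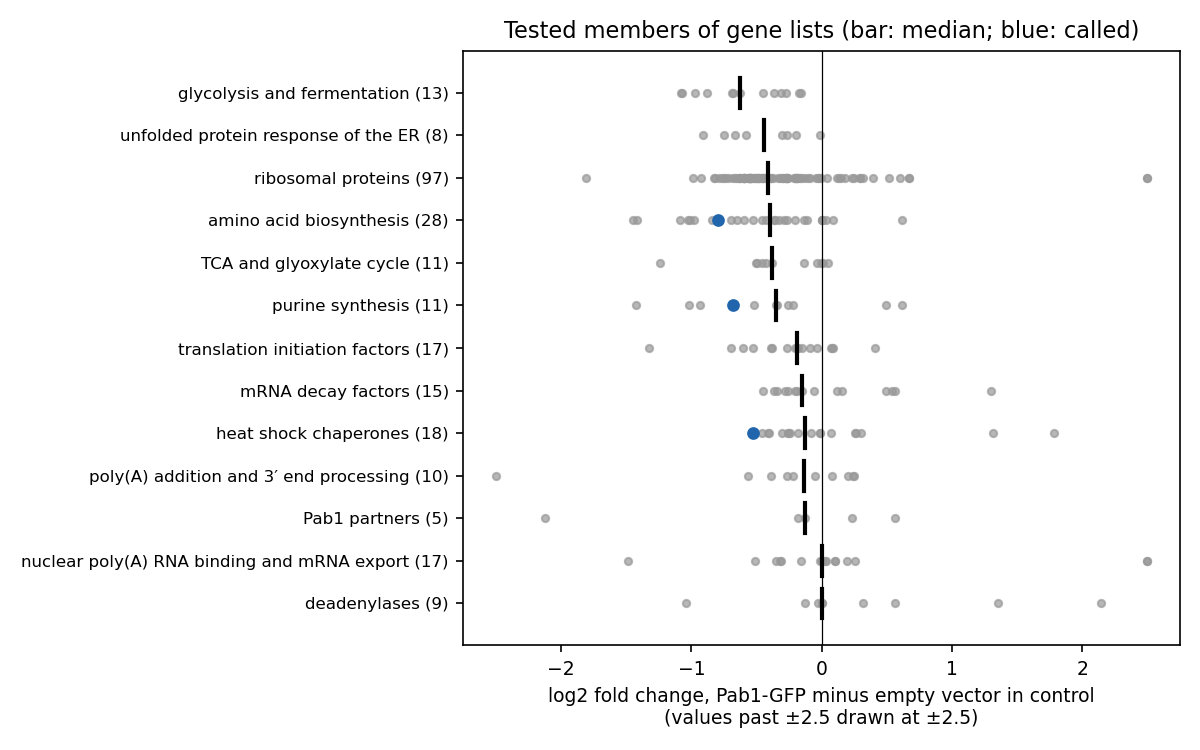
Fitted log2 fold changes, Pab1-GFP minus empty vector in control, of the tested members of 13 gene lists, 1 point a gene, with the number tested in brackets and a bar at the median. Values past 2.5 in size are drawn at that limit; the medians of glycolysis (-0.63) and ribosomal proteins (-0.41) lie left of 0 while 3 blue points, HIS4, ADE6 and SSE1, are called.

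Set beside the mutants, of the 28 features called in control 22 had the same sign in csl4-ph and 6 were called there, out of 26 features (0.416%) called in that strain. In enp1-1, where 443 features (7.09%) were called, 19 had the same sign and 8 were called. The share of all tested features with the same sign was not computed, so the sign counts have no background beside them. The vector difference itself differed from that in control for 2 of the 28 in csl4-ph and for 8 in enp1-1, out of 2 (0.032%) and 64 (1.02%) of all features tested. These differences share the control libraries. The strains also differed in a mating marker, since STE6, an a-specific gene, held 326.306 to 815.411 counts in the 6 enp1-1 libraries against 13 to 27 in control. The strains differed in the marker gene LYS2 as well, at 111 to 262 counts in the 6 enp1-1 libraries and 0 in the control and csl4-ph vector libraries. They differed in the HIS3 locus too, where ST6851 held 12569.1 to 14686.6 counts with the empty vector in csl4-ph against 261.814 to 487.914 in control. The part of these in the differences was not tested. In enp1-1 YOR203W did not fall as in control, at -0.28 ± 0.1478 (difference 1.29, adjusted p = 0.01), and MUM3 stood at -0.43 against 0.92 in control (difference -1.35, adjusted p = 0.0116).

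**Figure D5:**
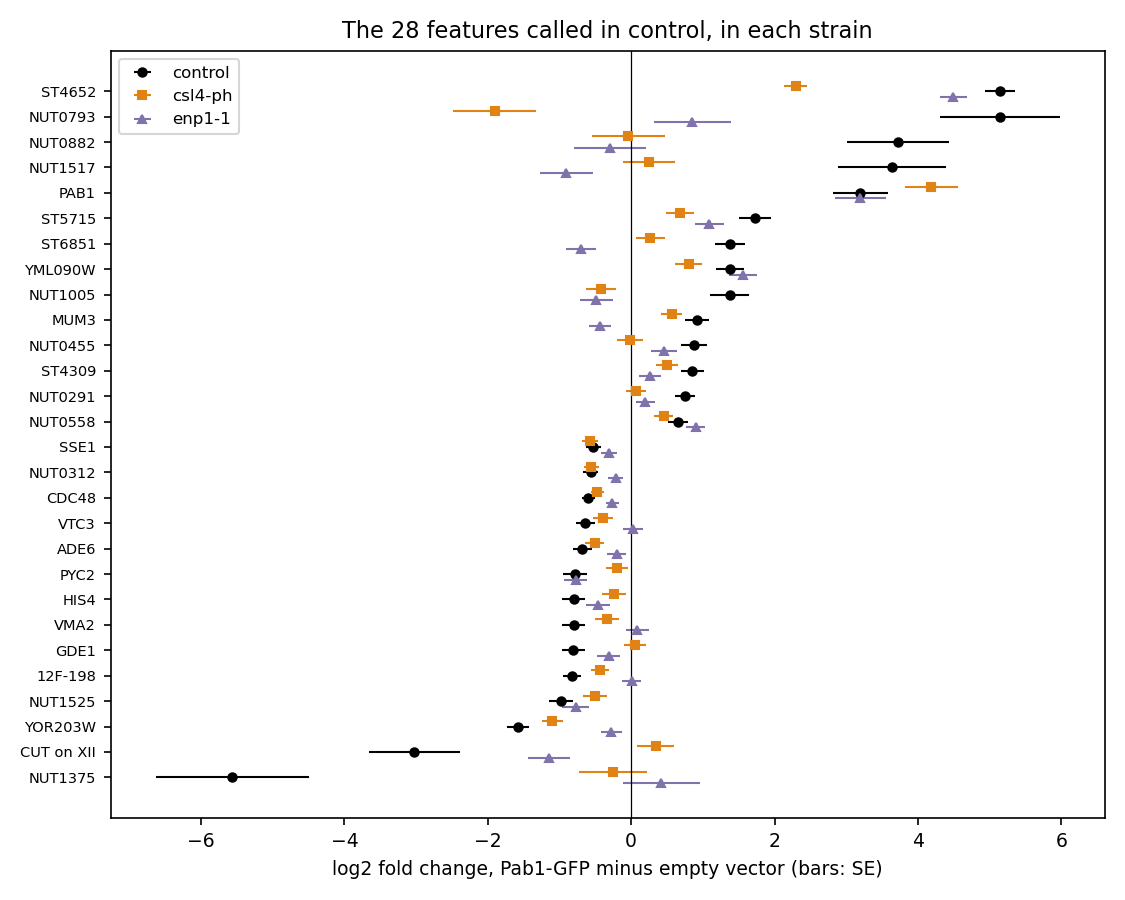
Log2 fold changes, Pab1-GFP minus empty vector, of the 28 features called in control, with SE bars, in control (black circles), csl4-ph (orange squares) and enp1-1 (purple triangles). PAB1, ST4652, ST5715 and YML090W are positive in all 3 strains.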

How the data were processed

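RNA of 6 control libraries (3 a group) was analysed within a fit of the 18 libraries of 3′ tags. Sequencing gave single-end 90-base reads, per the labels' protocols, from which the leading 12 bases, adapter sequence and poly(A) were clipped. Per the submitters' processing notes, tools were Trimmomatic 0.38, Salmon 0.12.0 and bedtools, and the build was sacCer3 (R64). The values the authors deposited are Salmon's estimated counts, unscaled, and features overlap: 69.8% of those outside the ribosomal DNA share bases with another, so reads may be divided among them. Columns were matched to samples by title or by strain, vector and replicate in their names, and 0 identical libraries were found.

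The 18 ribosomal DNA features were taken out and estimated counts were rounded. Tests were 2-sided quasi-likelihood F-tests of edgeR 4.0.16 (R 4.3.3) with TMM scaling and edgeR's filter by group, which left 6249 features and dropped 5320. Standard errors follow from the F statistic. Vector differences between strains were interaction terms. Single values were compared by exact permutation. The script was tested on simulated data. Sequences were read from the R64 reference, whose ORF coordinates equalled those of the table for 5853 of 5882 matched ORFs. Features named were PAB1, NAB2, Pab1 partners and selection markers whatever their values, the 20 called features with the largest change each way at a mean of 20 CPM or more, the 4 called members of each of 38 gene lists and the 10 called features each way with the smallest adjusted p, the 5 with the smallest adjusted p for each mutant's interaction, and others said to be chosen afterwards, which include called features outside these limits, neighbours and mating markers. Members and lists were chosen with earlier results of these data known. Alternatives were other scaling, filters, sample sets, DESeq2 1.42.0, a replicate block, unrounded counts, each library left out, and merged overlapping features, which was added after seeing the data.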

Additional observations from a re-analysis of the deposited data

Results flagged for a closer look

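For 14 results the difference between vectors itself differed from that in control, by the interaction term of the edgeR fit at an adjusted p under 0.05. Values are log2 differences, mutant minus control, and those against groups at 0 counts are fitted values and no bounds.

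In csl4-ph the difference was -2.86 for ST4652 (adjusted p = 6.43e-05), where the rise was present in both strains, and -7.04 for NUT0793 (adjusted p = 0.0119), with 0 to 2.24 counts a library in the control empty vector group.

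In enp1-1 features of the HIS3 locus differed: ST6851 by -2.08 (adjusted p = 0.00518) and YOR203W by 1.29 (adjusted p = 0.01). The difference was 0.83 for 12F-198 (adjusted p = 0.0349), -1.35 for MUM3 (adjusted p = 0.0116) and -1.86 for NUT1005 (adjusted p = 0.0255). Among features at or near 0 in a control group it was -4.02 for NUT0882 (adjusted p = 0.0376), -4.54 for NUT1517 (adjusted p = 0.0241) and 5.98 for NUT1375 (adjusted p = 0.0348).

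At the left end of chromosome V, 4 features were at 0 counts in all 3 enp1-1 Pab1-GFP libraries and above 0 in every other vector library. The difference was -7.22 for ST0804 (V:7713-8089), -9.22 for 5R-11, -7.06 for CUT_V_9969_10497 and -6.84 for CUT_V_15349_15605. The feature 5R-11 held 57 to 72 counts in the enp1-1 empty vector libraries and 41 to 66 in the 6 control libraries, where the vectors' difference was not called (adjusted p = 0.747).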

How the results depend on the processing

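Depth limits this comparison: a count of 0 allows up to 6.443 CPM, and features under about that level cannot show a fall. Features higher and lower numbered 49 and 58 with DESeq2, 37 and 72 with the compared groups alone (where 3840 features were tested), 7 and 3 without the filter on low counts, and 5 and 1 with a replicate block. Leaving out each control library gave 7 to 9 higher and 1 to 5 lower. Of the 28 called features 27 were kept with DESeq2 (1 had no adjusted p), 24 of 25 with the compared groups alone 10 without the filter and 6 with the replicate block. Features whose vector difference differed from that in control numbered, for csl4-ph, 32 with DESeq2, 1 with the compared groups alone, 1 with the replicate block, 1 with overlapping features merged and 1 to 4 without each library. For enp1-1 they numbered 162 with DESeq2, 26 without the filter, 32 with the compared groups alone, 2 with the replicate block and 10 to 44 without each library. With overlapping features merged ST6851 turned to -0.42 and NUT0882 to -0.028, and 13 loci were higher and 11 lower; of the 28 called features 16 kept their call, 10 lost it and 2 reversed. The difference in the ribosomal DNA share ranged from -5.73 to 0.37 percentage points without each library. Other scaling, unrounded counts and the ribosomal DNA kept gave 13 or 14 higher and 11 to 15 lower. Of 255 list medians under alternatives 20 moved beyond the spread between replicates; the cause of these changes was not tested. Over 4441 features, libraries of the same replicate number did not clearly deviate together (correlations of 0.08, -0.04 and 0.08 in control). Not every library correlated best with its own number. The ribosomal DNA share, though, was lowest in replicate 3 of both vector groups in control, at 68.17 and 67.12%. Whether the numbers pair libraries is thus not settled. The main fit leaves them unpaired, and the replicate block pairs them.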

Other observations

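ENA1, ENA2 and ENA5 encode near-identical sodium pumps in a tandem array on chromosome IV, and were looked at after their values were seen. ENA1 (IV:535192-538467) was at 0 counts in the 3 empty vector libraries and at 88.612, 94.895 and 39.88 counts with Pab1-GFP (not called, adjusted p = 0.189). ENA2 stood at 429.3, 399 and 454.5 CPM with the empty vector and at 170.5, 176.1 and 237.6 CPM with Pab1-GFP (log2 fold change -1.13, adjusted p = 0.188), and ENA5 at 45.66 ± 24.8 and 31.12 ± 8.422 CPM. Together the 3 genes held 501.8, 439.9 and 478.1 CPM and 381.2, 403.8 and 332.6 CPM, with groups that did not overlap. The split of reads between such copies is uncertain.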
